A study of Homo sapiens with 3 samples.

Results

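The genes described here were 8 members of the SLCO and SLC22 families of membrane carriers, SLCO1B1, SLCO1B3, SLCO1B7, SLCO1A2, SLCO2B1, SLC22A2, SLC22A3 and SLC22A6. The background was 20037 protein-coding genes, which hold 7 of the 8 members as entries of their own, all except SLCO1B7. The members were listed by name as uptake transporters with earlier results of these data known, so their counts are a description and no independent evidence that they stand apart from other genes. A peak was assigned to a member when it overlapped the gene or the 1000 bp on either side of it. The study mapped where the transcription factors SOX4 and STAT6 sit on the DNA of Hep3B, a long-established cell line from a human liver cancer. The labels title the 3 libraries as ChIP and name no treatment, while their protocol and the study's methods give a CUT&RUN kit, in which a nuclease tethered to the antibody cuts out the DNA around bound sites, and there was 1 library each for an antibody against SOX4, an antibody against STAT6 and control IgG. There were 4513 peaks for SOX4 and 1078 for STAT6, each list called by the authors against the same IgG library, so the lists share their control and their values are given side by side. With 1 library per antibody there was no replicate, no p-value was computed, and the read depth of the libraries is unknown. The peak files carry no expression values, so the liver origin of the cells could not be checked against marker genes.

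SLCO genes encode organic anion transporting polypeptides, which carry bilirubin, bile acids, thyroid hormones and drugs such as statins into cells. SLCO1B1 and SLCO1B3 are characteristic of the hepatocyte membrane that faces the blood, and SLCO2B1 is found in liver and gut. SLC22 genes encode carriers of organic cations and anions, of which SLC22A2 and SLC22A6 are best known from the kidney. SOX4 is a high-mobility-group factor that bends DNA, and STAT6 is the factor activated by the cytokines IL-4 and IL-13.

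Peaks were concentrated in a single gene cluster. SOX4 peaks lay at 4 of the 8 members, SLCO1B1, SLCO1B3, SLCO1B7 and SLCO2B1, and the background was 6.35% of all protein-coding genes. STAT6 peaks lay at 3 of the 8 members, SLCO1B1, SLCO1B3 and SLCO1B7, against a background of 1.08%, and the same 3 held peaks of both lists, against 1.03%. These 3 are neighbours on chromosome 12, and SLCO1B7 was measured as a continuation of SLCO1B3, so they are not independent hits. Long genes offer more room for a peak, and among the 3356 protein-coding genes of at least 100 kb the shares were 20.7% for SOX4, 1.55% for STAT6 and 1.55% for both. The members held 36 SOX4 peaks, 0.798% of that list, and 35 of these were on chromosome 12. They held 20 STAT6 peaks, 1.86% of that list, and all 20 were on chromosome 12. The remaining 4 members, SLCO1A2, SLC22A2, SLC22A3 and SLC22A6, held no peak of either list.

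The sequence before the start is shown for the SLCO1B gene with a peak of both lists on its start and for the neighbour without one. Each run is the 250 bases before the annotated start, 5′ to 3′ on the plus strand, from RefSeq on GRCh38.p14, at chr12:21130944-21131193 for SLCO1B1 and chr12:20810455-20810704 for SLCO1B3. Capitals mark the letters ACAAAG or ACAATG, a core recognised by SOX factors, and TTC and GAA separated by 3 or 4 bases, the palindrome recognised by STAT factors, searched on both strands.
SLCO1B1: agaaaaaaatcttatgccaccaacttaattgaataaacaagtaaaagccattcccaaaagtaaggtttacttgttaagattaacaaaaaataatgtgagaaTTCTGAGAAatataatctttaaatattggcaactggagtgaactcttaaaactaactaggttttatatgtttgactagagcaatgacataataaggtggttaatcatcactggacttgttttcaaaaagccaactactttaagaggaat
SLCO1B3: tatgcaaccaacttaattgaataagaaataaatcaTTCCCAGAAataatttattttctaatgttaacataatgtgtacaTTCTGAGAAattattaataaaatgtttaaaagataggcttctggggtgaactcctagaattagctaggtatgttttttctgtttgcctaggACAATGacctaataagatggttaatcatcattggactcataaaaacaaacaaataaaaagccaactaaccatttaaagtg
The SLCO1B1 run held no SOX letters and 1 STAT palindrome with 3 bases between its arms, beginning 149 bases before the start. The SLCO1B3 run held ACAATG 80 bases before the start and 2 STAT palindromes with 3 bases between the arms, the first beginning 215 bases before it. The 4-base form, set here as the STAT6 motif with the 3-base form beside it, had 0 matches in either run. None of the motif matches of the 2 runs overlapped one another. Over all 35116 promoter windows of this length, 21.2% held the SOX letters and 11.5% a STAT palindrome of either spacing, with 5.38% for the 4-base and 6.57% for the 3-base form. Within these 250 bases, the start with both peaks had fewer of these letters than the start without one, a contrast of 2 runs only. Of the other member starts, only the SLCO1A2 start at 21334917 held a match, a 3-base palindrome 130 bases before it. The peaks extend beyond these bases on both sides, and the rest of them was not searched. LOC124902894, a predicted gene inside SLCO1B3 whose start was also spanned by both lists, had 0 matches in its own 250 bases. A match is a description of the letters alone. In an alignment of 274 columns the runs were identical at 182, or 66.4%, and their longest common stretch was accaacttaattgaataa, 18 bases that begin 232 bases before the SLCO1B1 start and 244 before that of SLCO1B3. GC content was 29.2% for SLCO1B1 and 28.4% for SLCO1B3, and the median over all windows was 58.0%. The motif shares over all windows were not matched for GC content. Of the 8 members, 6 had a promoter entry, with 8 starts in all and a median GC content of 42.8%. SLC22A3 and SLCO1B7 had none.

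SLCO1B1 encodes OATP1B1, which takes up bilirubin, bile acids and statins into hepatocytes, and it had the most peaks and the highest fold enrichments of the members in both lists. Fold enrichment is the ratio of the signal at the peak to the IgG background, and −log10 q measures how unlikely the caller rated such a signal, with higher values for stronger peaks. The gene lies on the plus strand at chr12:21131194-21239796 and spans 109 kb. It carried 13 SOX4 peaks, or 12 per 100 kb, which covered 19.4% of the gene. Their fold enrichment ran from 21.9 to 147 with a median of 104, and their −log10 q from 119 to 1473. The median of the whole SOX4 list was a fold of 5.88 and a −log10 q of 15.3, so each of the 13 peaks lay above both. The gene also carried 12 STAT6 peaks, or 11 per 100 kb, which covered 7.78% of it. Their fold ran from 5.93 to 16.8 with a median of 10.1, where the whole STAT6 list had a median of 7.27, and 2 of the 12 fell below that median.

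A pair of peaks, 1 from each list, spanned the SLCO1B1 start at position 21131194. The SOX4 peak at chr12:21130478-21131937 had a fold of 94.0 and a −log10 q of 839, and its summit, the position of highest signal, lay 5 bp upstream of the start. The STAT6 peak at chr12:21130905-21131429 had a fold of 10.1 and a −log10 q of 21.6, and its summit lay 4 bp downstream. The 2 summits were 9 bp apart, the smallest distance at the members, reached also by the pair whose SOX4 summit lay 71.3 kb into the gene. Of the 35116 RefSeq starts, SOX4 peaks spanned 171, or 0.487%, and STAT6 peaks 96, or 0.273%. The end of the gene was likewise spanned by both lists. There the SOX4 peak at chr12:21238346-21240545 had a fold of 146, a −log10 q of 1457 and rank 88 in its list, with its summit 453 bp before the end. The STAT6 peak at chr12:21238833-21240063 had a fold of 13.6, a −log10 q of 35.0 and rank 159, with its summit 167 bp before the end and 286 bp from that of SOX4.

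The highest SLCO1B1 peaks of both lists coincided inside the gene. The SOX4 peak at chr12:21176052-21179688 had a fold of 147, a −log10 q of 1473 and rank 80, and at 3637 bp it was also the widest at any member. Its summit lay 45.6 kb from the start, at 42.0% of the gene length. It enclosed 2 STAT6 peaks. The first, at chr12:21176422-21177229, had a fold of 16.8, a −log10 q of 48.2 and rank 65 of 1078, and its summit was 16 bp from that of SOX4. The second, at chr12:21178239-21179272, had a fold of 13.3 and rank 177, with its summit 1763 bp away. In SLCO1B1, 11 SOX4 peaks of 13 coincided with a peak of STAT6, with folds from 79.8 to 147, and the 2 without one had folds of 21.9 and 68.7. All 11 were therefore higher than either peak that SOX4 held alone.

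**Figure D1:**
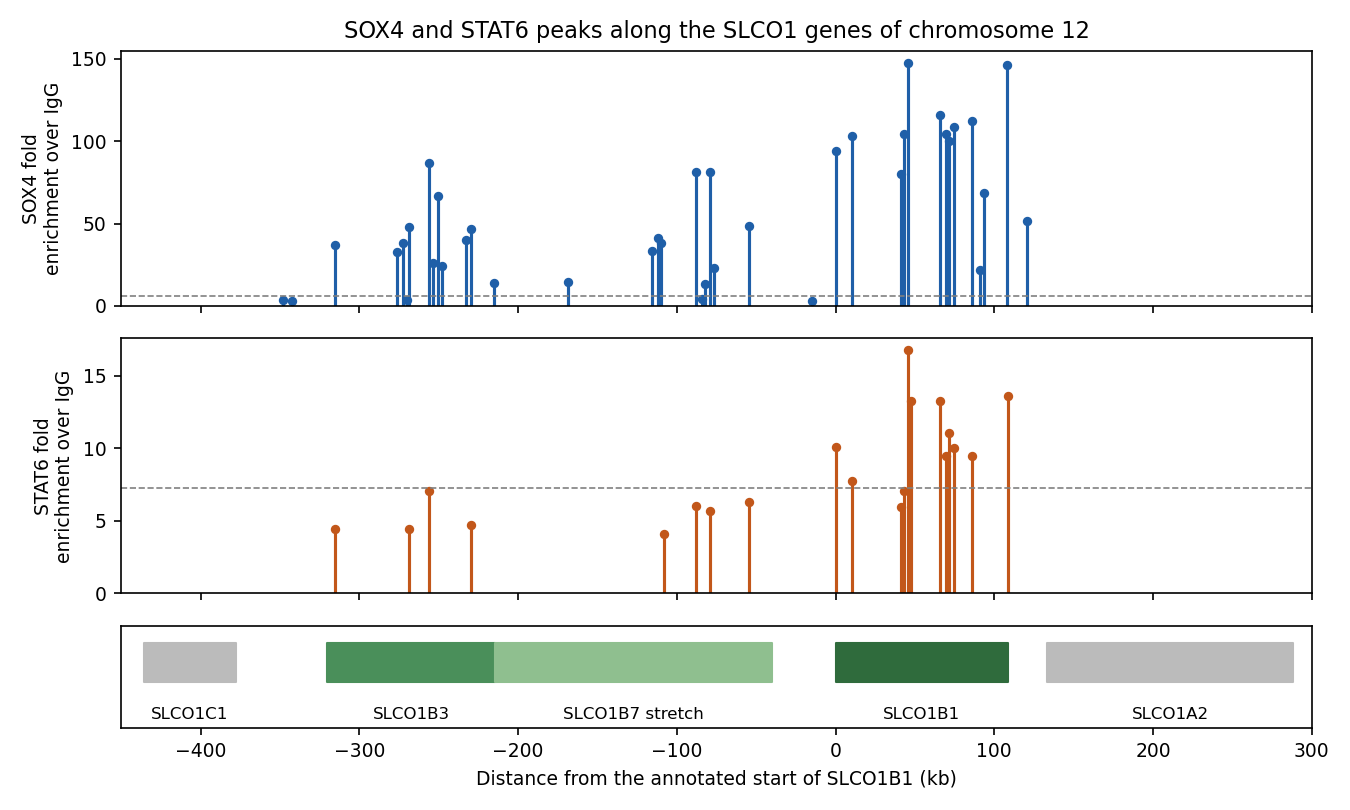
Fold enrichment over IgG (linear axes, SOX4 above and STAT6 below) of every peak in the SLCO1 cluster by its distance from the annotated SLCO1B1 start (kb), with the gene bodies drawn beneath and the median of each list dashed. Peaks crowd SLCO1B3, the SLCO1B7 stretch and SLCO1B1, up to a SOX4 fold of 147, while SLCO1C1 and SLCO1A2 at the ends hold 0 peaks.

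SLCO1B3 encodes OATP1B3, the close relative of OATP1B1 that also takes up the gut hormone cholecystokinin. It lies on the plus strand at chr12:20810705-20916911, spans 106 kb and so is nearly as long as SLCO1B1. It carried 12 SOX4 peaks, or 11.3 per 100 kb, which covered 15.8% of the gene. Their fold ran from 3.46 to 86.8 with a median of 37.5, and their −log10 q from 3.64 to 839. It carried only 4 STAT6 peaks, or 3.77 per 100 kb, which covered 1.61% of it. In order along the gene their folds were 4.43, 4.43, 7.04 and 4.74, each below the list median of 7.27, and their −log10 q values were 3.57, 3.57, 12.7 and 4.38. SLCO1B3 was thus close to SLCO1B1 in the number of SOX4 peaks and lower in their fold and in STAT6 peaks. Of its 12 SOX4 peaks, 4 coincided with STAT6, with folds from 37.2 to 86.8, and 8 did not, with folds from 3.46 to 66.7. Unlike in SLCO1B1, these ranges overlapped.

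No peak spanned the SLCO1B3 start. The nearest summits lay downstream, 5066 bp away for SOX4 in a peak at chr12:20815135-20816412 with a fold of 37.2, and 5103 bp away for STAT6 in a peak at chr12:20815698-20816006 with a fold of 4.43. The SOX4 peak spans the annotated start, at 20815674, of SLCO1B3-SLCO1B7, a readthrough gene that joins SLCO1B3 to its neighbour, and the summits lay 97 bp and 134 bp after it. The highest peaks of the gene formed a pair as well. The SOX4 peak at chr12:20874578-20876045 had a fold of 86.8, a −log10 q of 839 and rank 374, and the STAT6 peak at chr12:20875097-20875703 had a fold of 7.04, a −log10 q of 12.7 and rank 555, with the summits 96 bp apart. A further pair, with folds of 46.5 for SOX4 and 4.74 for STAT6, spanned the start of LOC124902894, a predicted gene inside SLCO1B3, at 20901405, with the summits 26 bp and 39 bp upstream. The end of SLCO1B3 was approached by SOX4 alone, with a peak at chr12:20915662-20916848 that had a fold of 13.8 and a summit 663 bp before the end.

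SLCO1B7 is a SLCO1B-like gene between the others, and the gene table used here lists it only within the readthrough SLCO1B3-SLCO1B7. It was therefore taken as the part of the readthrough beyond SLCO1B3, chr12:20916912-21091222, a stretch of 174 kb. It carried 10 SOX4 peaks, or 5.74 per 100 kb, which covered 7.74% of it, with folds from 4.47 to 81.5 and a median of 35.9. It carried 4 STAT6 peaks, or 2.29 per 100 kb, which covered 1.02%, with folds along the stretch of 4.11, 6.01, 5.69 and 6.32. All 4 were below the STAT6 list median, as in SLCO1B3. Of the SOX4 peaks, 4 coincided with STAT6, with folds from 38.3 to 81.5. The other 6 had folds from 4.47 to 41.0, so these ranges overlapped, as in SLCO1B3. The highest SOX4 peak, at chr12:21042706-21044099, had a fold of 81.5 and rank 414 and enclosed a STAT6 peak with a fold of 6.01 and its summit 42 bp away. The next, at chr12:21051410-21052924, had a fold of 81.1 and enclosed a STAT6 peak with a fold of 5.69 and its summit 16 bp away. The highest STAT6 peak, at chr12:21076317-21076665, had a fold of 6.32 and lay in a SOX4 peak with a fold of 48.3, the summits 19 bp apart. The SOX4 peaks were unevenly placed, with 1 summit at 45.9 kb from the low end, the next at 98.8 kb and a gap of 52.9 kb between them.

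The 3 genes differed in enrichment along the same stretch of chromosome. The median SOX4 fold of SLCO1B1 was 2.77 times that of SLCO1B3 and 2.90 times that of SLCO1B7, and 10 of its 13 SOX4 peaks had a higher fold than every SOX4 peak of SLCO1B3, and likewise of SLCO1B7. The median STAT6 fold of SLCO1B1 was 2.20 times that of SLCO1B3 and 1.72 times that of SLCO1B7, and 11 of its 12 STAT6 peaks exceeded every STAT6 peak of either neighbour. The peaks of a gene come from 1 library and are not replicates, so these ratios have no test. The fold values are also coarse for STAT6. At the members, 15 of 20 STAT6 folds were whole multiples of 0.31618 within 0.03 of a step, and the peaks on this scale ran from 13 to 53 steps. Folds of 4.43 and 4.74 were thus 1 step apart. For SOX4, 27 of 36 folds were whole multiples of 0.18223 within the same tolerance, from 19 to 809 steps. Each step was the one, of many tried, that matched the most of these same folds, so these counts describe a fit. The SLCO1B genes are close relatives in sequence, and how the authors placed reads that match several positions is not given in the sources used here, so the division of signal among them is uncertain.

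**Figure D2:**
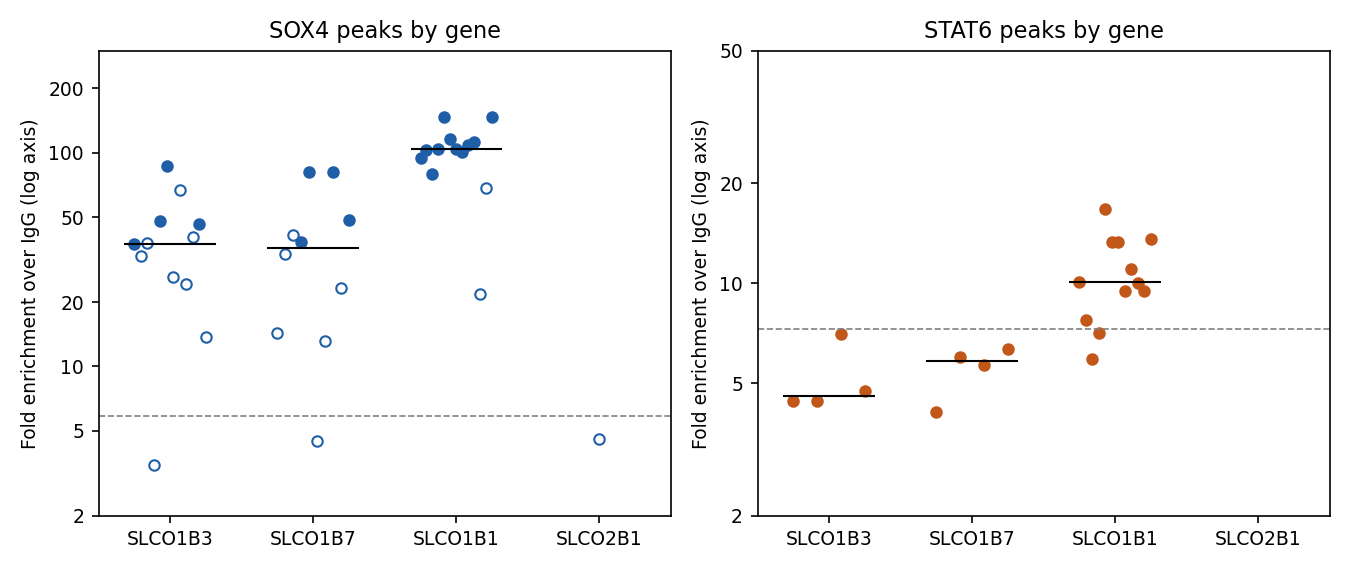
Fold enrichment over IgG (log axis) of each SOX4 peak (left) and STAT6 peak (right) at the 4 members with peaks, filled where a peak of the other list overlaps and open where none does, with the median of the gene as a black line and that of the list dashed. SLCO1B1 has the highest medians, 104 for SOX4 and 10.1 for STAT6, its filled SOX4 points stand above its open ones, and SLCO2B1 has a single SOX4 point at 4.56.

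The peaks of the lists overlapped at these genes. All 20 STAT6 peaks at the members overlapped a SOX4 peak. That share of 100%, with a Wilson 95% interval of 83.9% to 100%, stood beside 78.7% of the whole STAT6 list, with an interval of 76.1% to 81.0%. In the other direction, 19 of 36 SOX4 peaks coincided with STAT6, or 52.8%, with an interval of 37.0% to 68.0%, beside 14.2% of the whole SOX4 list, with an interval of 13.2% to 15.2%. The intervals cover counting error over peaks alone, and neighbouring peaks of a cluster are not independent. The summits of the 20 STAT6 peaks lay 9 to 1763 bp from the nearest SOX4 summit, with a median of 40 bp, and 15 were within 100 bp. SOX4 peaks were the wider, with a median of 1417 bp against 617.5 bp for STAT6 at the members. Over the whole lists the medians were 891 bp and 576.5 bp. All 20 STAT6 peaks at the members lay wholly inside a SOX4 peak, and this share was not computed for the whole list. The shares were not matched for fold, and SOX4 peaks at the members had a median fold of 47.1, against 5.88 for the list. Across the whole SOX4 list, the 640 peaks that overlapped STAT6 had a median fold of 95.5 and the others 5.22. The overlapping peaks of SLCO1B1, with a median of 104, were close to the former value, and those of SLCO1B3, with a median of 47.1, and SLCO1B7, with a median of 64.7, were below it.

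SLCO1B1 and SLCO1B3 ranked high in the number of peaks among all protein-coding genes. For SLCO1B1, 8 genes had more SOX4 peaks, among them the SLCO1B3-SLCO1B7 readthrough with 22, and 10 genes had more STAT6 peaks. For SLCO1B3, 10 genes had more SOX4 peaks and 50 had more STAT6 peaks. Both counts include SLCO1B1 and the readthrough, which overlaps SLCO1B3 and shares its peaks. The 206 protein-coding genes with a peak in both lists had a median of 1.5 SOX4 peaks, and 16 of them had 10 or more. SLCO1B1, SLCO1B3 and the readthrough are among those 16. The counts were not matched for gene length. Of the 206 genes, 52 were at least 100 kb long, as SLCO1B1 and SLCO1B3 are.

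The positions of the SOX4 summits along SLCO1B1 and SLCO1B3 are given side by side, with no test of likeness. Measured from the start, the SOX4 summits of SLCO1B1 began at the start itself and at 10.4 kb, were then absent over 31.1 kb, and resumed at 41.5 kb. Those of SLCO1B3 began at 5.07 kb, were absent over 39.4 kb, and resumed at 44.4 kb. Beyond this gap SLCO1B1 had summits at 41.5, 43.4 and 45.6 kb, at 65.8, 69.3, 71.3 and 74.8 kb, at 86.0, 91.1 and 93.6 kb, and at 108 kb near its end. SLCO1B3 had summits at 44.4, 47.8, 50.4 and 51.9 kb, at 64.6, 67.1, 70.2 and 72.8 kb, at 87.7 and 90.7 kb, and at 106 kb near its end. These distances depend on where each start is annotated, and the position of the peaks relative to exons was not analysed here.

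**Figure D3:**
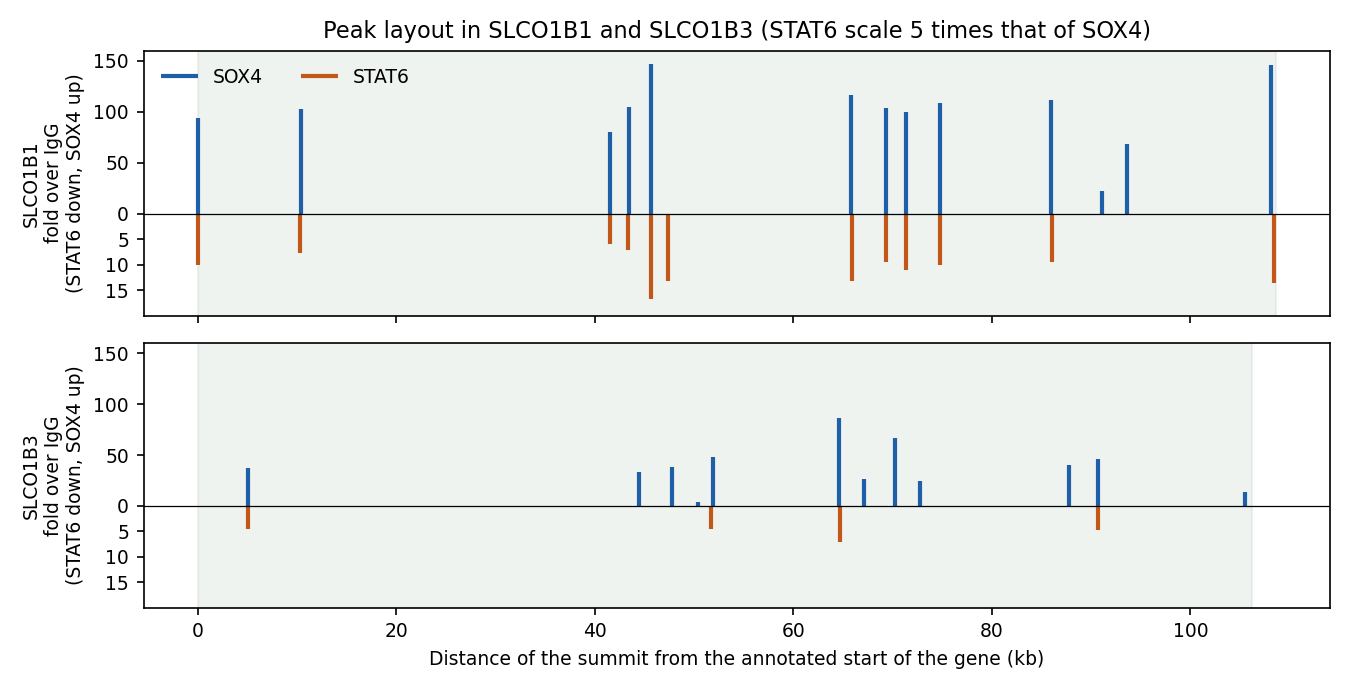
Distance of each summit from the annotated start (kb) in SLCO1B1 (top) and SLCO1B3 (bottom), with the length of each line giving fold enrichment over IgG, upward for SOX4 and downward for STAT6 on a scale enlarged 5 times, and the gene shaded. Both genes have an early summit or pair of summits, a gap in SOX4 summits of 31.1 kb or 39.4 kb, and groups of summits from 41.5 kb or 44.4 kb to near the end of the gene.

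Outside the genes of the cluster, SOX4 peaks covered a smaller share of the DNA, and no STAT6 summit was found. The 3 genes with peaks make up 389 kb and held 34 SOX4 and 20 STAT6 summits, and SOX4 peaks covered 13.2% and STAT6 peaks 3.07% of that length. The stretches beside and between them, 122 kb from the end of SLCO1C1 to the low end of SLCO1A2, held 5 SOX4 summits and 0 STAT6 summits, with 3.49% and 0.455% covered. One of those 5 is the SLCO1B1 start peak, with a fold of 94.0, whose summit lies just before the gene. Of the rest, 2 lay between SLCO1C1 and SLCO1B3 with folds of 3.40 and 3.10, and 1 lay between SLCO1B7 and SLCO1B1, at chr12:21116304-21116742, with a fold of 2.86, all below the list median. The exception was a SOX4 peak at chr12:21251035-21252486 between SLCO1B1 and SLCO1A2, with a fold of 51.6, a −log10 q of 386 and rank 579. It lay 472 bp beyond LOC124902895, an uncharacterised non-coding gene that overlaps the end of SLCO1B1, and no STAT6 peak overlapped it.

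The genes at the edges of the cluster held no peak. SLCO1A2 encodes OATP1A2, known from the blood-brain barrier and bile duct cells, and it lies on the minus strand at chr12:21264600-21419634. At 155 kb it is longer than SLCO1B1, and neither list had a peak in it or within its margin. Its nearest SOX4 peak was the one with a fold of 51.6, 12.1 kb away, and its nearest STAT6 peak was the one at the end of SLCO1B1, 24.5 kb away. SLCO1C1, a thyroid hormone carrier on the other side of the cluster, spans 58.1 kb and also had no peak. PDE3A and PYROXD1, the genes beyond them, and IAPP, which lies inside SLCO1A2, had none either. Absence of a peak is common. Of the protein-coding genes of at least 100 kb, 20.7% held a SOX4 peak and 1.55% a STAT6 peak.

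SLCO2B1, which encodes OATP2B1, lies apart from the cluster on chromosome 11, at chr11:75151107-75206549. It held 1 SOX4 peak, at chr11:75160908-75161518, with a fold of 4.56, a −log10 q of 7.76 and rank 2851 of 4513. This peak was weaker than the list median and covered 1.10% of the gene. Its summit lay 10.0 kb from the first annotated start and 1291 bp downstream of the second, at 75159832. The gene held no STAT6 peak, and the nearest lay 101 kb away. OR2AT4 and TPBGL, the genes beside it, held no peak.

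The SLC22 members held no peak of either list. SLC22A2, which encodes the kidney cation carrier OCT2, lies at chr6:160216755-160258821, with the nearest SOX4 peak 261 kb and the nearest STAT6 peak 309 kb away. SLC22A3 encodes OCT3, a cation carrier of wide tissue distribution. It lies at chr6:160348378-160452577, and the distances were 67.6 kb and 440 kb. From IGF2R through PLG, a region of 785 kb that holds both genes, there was 1 SOX4 peak, with a fold of 3.33, and no STAT6 peak. SLC22A3 is 104 kb long and SLC22A2 is 42.1 kb long, so the former matches SLCO1B1 and SLCO1B3 in length. Outside this region, the STAT6 peak nearest to SLC22A2 lay in MAS1, where a SOX4 peak had a fold of 105 and a STAT6 peak a fold of 7.93.

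SLC22A6 encodes OAT1, the organic anion carrier of the kidney tubule, and lies at chr11:62976597-62984967. At 8.37 kb it is the shortest member. The nearest SOX4 peak was 143 kb away in SLC22A24, with a fold of 8.02, and the nearest STAT6 peak 232 kb away in SLC22A25, with a fold of 5.37. SLC22A8, the neighbouring anion carrier, and CHRM1 held no peak. SLC22A25 also held a SOX4 peak with a fold of 74.5, at chr11:63216575-63218185, and its STAT6 peak lay within it.

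**Figure D4:**
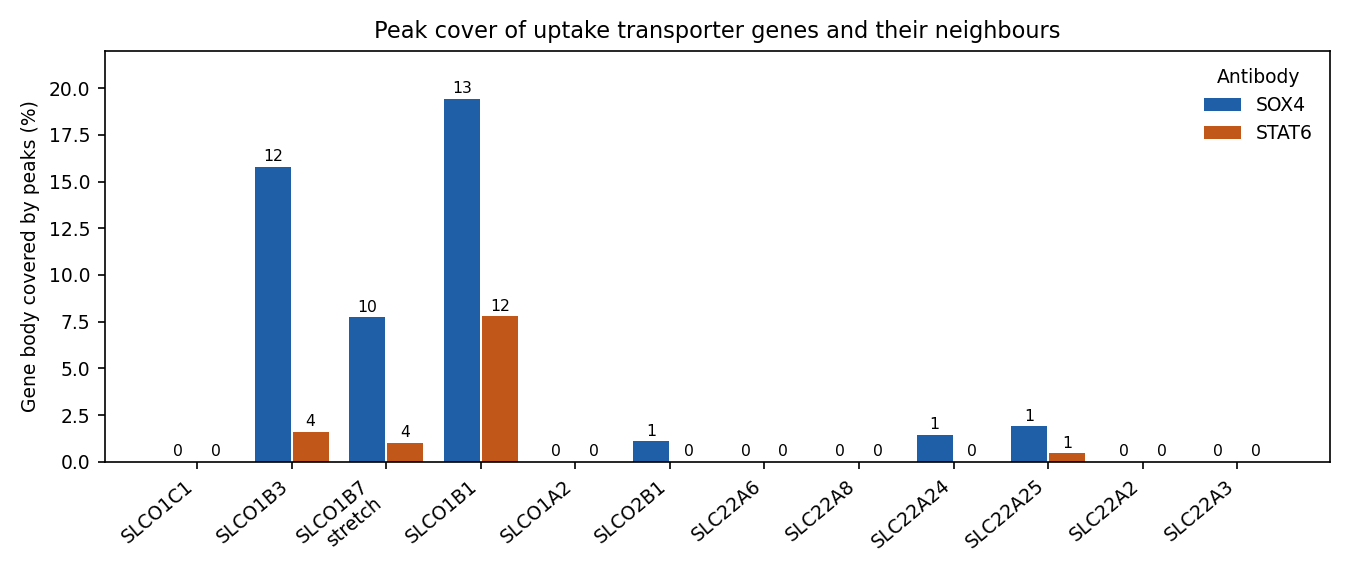
Share of each gene body covered by SOX4 and STAT6 peaks (percent), for 7 members, the SLCO1B7 stretch and neighbouring family genes, with the number of peaks that overlap the gene above each bar. SLCO1B1 reaches 19.4% for SOX4 and 7.78% for STAT6, SLCO1B3 reaches 15.8% and 1.61%, and SLCO1A2, SLC22A2, SLC22A3 and SLC22A6 are at 0.

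The other genes of these families gave the wider picture. Among 26 further protein-coding genes, 7 SLCO genes, 18 SLC22A genes and SLC10A1, the sodium-dependent bile acid carrier of hepatocytes, 6 held a SOX4 peak and 1 held a STAT6 peak. The gene with both was SLC22A25. Over all protein-coding genes the shares were 6.35% for SOX4, 1.08% for STAT6 and 1.03% for both. In SLC22A15, SLCO6A1, SLC22A23, SLC22A16 and SLC22A24 the highest SOX4 fold ran from 4.01 to 8.50, and SLC22A23 had 2 peaks. SLC10A1 held no peak. Over all 8 members the gene bodies summed to 754 kb, of which SOX4 peaks covered 6.89% and STAT6 peaks 1.59%.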

How the data were processed

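CUT&RUN libraries of Hep3B cells were made by the authors with antibodies against SOX4 and STAT6 and with IgG, 1 library each, and processed in Partek. The submitters' processing notes name BWA and hg38. Which peak caller and cutoff were used, and how reads with several matching positions were handled, is not given in the sources used here, and no IgG peak list was analysed here. The deposited values are a fold enrichment (ratio) over IgG, −log10 p, −log10 q and a display score, which was not used. Gene ends, starts and promoters came from RefSeq tables of GRCh38.p14, and 7 of 8 members had an entry of their own. Exons and proteins were not analysed here. A peak was assigned when it overlapped a gene or its 1000 bp margin by at least 1 bp. The named genes were all 8 members, with their highest peaks and pairs, the peaks at gene ends, the neighbouring genes and the family genes with a peak. Members and lists were chosen with earlier results of these data known. Replicate error could not be estimated, and Wilson intervals (95%) cover counting error over peaks only. The counting of overlaps was checked with simulated peaks. Computations used Python 3.11.15, numpy 2.4.6, scipy 1.17.1, pandas 2.3.3, matplotlib 3.10.9 and biopython 1.88.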

Additional observations from a re-analysis of the deposited data

How the results depend on the processing

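No paired analysis was possible because the design has a single library per antibody, and likewise no replicate could be left out. Margins of 0 and 3000 bp left the number of members with a peak, the number of peaks and the overlap shares as reported, and the summit in place of the whole peak did so for the members and peaks. Cover was recomputed only with stricter peaks and without SLCO1B7, a version chosen after seeing the data. Cover of the member bodies by SOX4 moved from 6.89% to 6.84% with a −log10 q of at least 5, to 6.69% with a fold of at least 5 and to 6.63% without SLCO1B7. Cover by STAT6 moved from 1.59% to 1.41% under each stricter filter and to 1.75% without SLCO1B7. When an overlap had to reach 50% of both peaks, the share of member STAT6 peaks in a SOX4 peak dropped to 15% and the share of SOX4 peaks to 8.33%, since STAT6 peaks are the narrower. With summits within 200 bp as the rule the shares were 85.0% and 47.2%. A −log10 q of at least 5 left 35 of the 36 SOX4 and 16 of the 20 STAT6 peaks and took the share of SOX4 peaks with STAT6 from 52.8% to 42.9%. A fold of at least 5 left 33 and 16 peaks, took that share to 45.5% and removed the SLCO2B1 peak, which leaves 3 members with SOX4. Without SLCO1B7, 3 members held SOX4 and 2 held STAT6, with 26 and 16 peaks and a share of 57.7%. Without a known read depth, the absence of a peak at a member says only that none was called.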
